A study of Mus musculus with 2 samples.

Results

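Open chromatin was described at 9 genes known for the formation of the spleen and for its stroma: Tlx1, Nkx2-5, Nkx2-3, Wt1, Madcam1, Cxcl13, Ccl19, Ccl21a and Ltbr. They were taken by name, all 9 were found in the annotation, and they are 9 of the 21938 protein-coding genes counted. The data were DNase-seq, which maps open chromatin by sequencing the places where the nuclease DNase I cuts nuclear DNA, from whole spleen of B6CASTF1/J females at 36 days of age, a first-generation hybrid of C57BL/6 and CAST. There was 1 group of 2 libraries with no treatment and no second genotype, so values are given per library and no test between groups exists. The labels number 2 females and 2 biosamples but attach 1 donor entry to both, so separate animals rest on the descriptions alone and the spread between libraries may in part be technical.

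The first 4 genes encode transcription factors. Tlx1 and Wt1 are needed in the mouse embryo for the spleen primordium to persist, Nkx2-5 is active in the same primordium, and Nkx2-3 is needed for normal spleen size and vessels. The other 5 genes organise the lymphoid tissue that fills the organ. Ltbr, the lymphotoxin beta receptor, is the receptor on stromal cells through which lymphocytes instruct them, and Cxcl13, Ccl19 and Ccl21a encode chemokines that stromal cells make to draw B cells and T cells into their zones. Madcam1 encodes an adhesion molecule that in the mouse spleen lines the marginal sinus and that depends on Nkx2-3. Stromal cells are a minority of whole spleen, and in bulk tissue fewer cells of a type and less open chromatin per cell cannot be told apart.

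Each library came with a shorter, stricter peak list (42454 peaks in replicate 1 and 60683 in replicate 2) and a longer, lenient one (61285 and 89476). The stricter list was used unless the lenient one is named. Every stricter peak held a run of the deposited cut rate track with a false discovery rate (FDR) of at most 0.001. Each locus ran from 20 kb before the gene body to 20 kb after it, and promoters were taken as 1 kb upstream and downstream of every annotated start. Replicate 2 held more peaks, more footprints (246700 against 133725) and more bases under a listed run (27.9 Mb against 20.3 Mb). The number of reads behind each library is unknown. The tissue label was checked on promoters of marker genes: the B cell markers were open at 5 of 5 promoters in both libraries, the T cell markers at 4 and 5 of 5, and the erythroid markers at 3 and 4 of 4. The macrophage markers were open at 2 of 4 in both libraries, Spic and Hmox1, while Csf1r and Adgre1 had no stricter promoter peak in either. The T cell and erythroid markers without a peak in replicate 1 were Cd3e and Klf1. Over all protein-coding genes 53.4% and 56.9% of promoters were open in replicates 1 and 2, so the macrophage share of 50% does not stand out. With 4 or 5 genes per list this is a coarse check.

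The sequences of the peaks that carry the results are shown first. Each is the mm10 (GRCm38) reference, which is the C57BL/6J sequence, so the CAST allele in these hybrid mice may differ in letters. Capitals mark bases that lay in a deposited footprint of either library, a short stretch protected from cutting inside open chromatin. Nkx2-3 had the fullest open locus of the transcription factors, with 3 peaks in each library.
Nkx2-3 promoter, upstream of the start site, chr19:43612141-43612324, plus strand: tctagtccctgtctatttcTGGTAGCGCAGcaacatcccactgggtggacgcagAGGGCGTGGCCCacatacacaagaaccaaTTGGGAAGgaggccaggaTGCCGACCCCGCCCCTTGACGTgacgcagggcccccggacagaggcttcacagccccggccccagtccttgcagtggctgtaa
Nkx2-3 peak 11.8 kb downstream, chr19:43624041-43624220, plus strand: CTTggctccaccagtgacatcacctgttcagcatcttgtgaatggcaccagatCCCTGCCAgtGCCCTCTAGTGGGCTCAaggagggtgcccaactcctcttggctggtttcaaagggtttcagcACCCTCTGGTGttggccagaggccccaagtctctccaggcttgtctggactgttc
Nkx2-3 peak 18.8 kb downstream, chr19:43631001-43631160, plus strand: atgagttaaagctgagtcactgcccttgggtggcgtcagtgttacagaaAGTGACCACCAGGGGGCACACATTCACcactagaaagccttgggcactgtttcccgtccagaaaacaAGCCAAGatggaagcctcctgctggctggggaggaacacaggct

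Tlx1 and Wt1 are shown because their peaks were weak and, at the promoters, differed between the libraries. The Tlx1 promoter was a peak of the lenient list of replicate 2 alone, and its upstream stretch held no footprint.
Tlx1 peak 9.8 kb downstream, chr19:45161201-45161387, plus strand: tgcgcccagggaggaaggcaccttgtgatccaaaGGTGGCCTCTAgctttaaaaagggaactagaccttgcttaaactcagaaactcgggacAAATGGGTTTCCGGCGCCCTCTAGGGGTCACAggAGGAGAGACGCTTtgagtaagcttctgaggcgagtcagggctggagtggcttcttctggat
Tlx1 promoter, upstream of the start site, chr19:45150541-45150679, plus strand: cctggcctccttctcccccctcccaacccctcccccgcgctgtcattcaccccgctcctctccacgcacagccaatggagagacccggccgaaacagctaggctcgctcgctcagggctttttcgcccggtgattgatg
Wt1 promoter, upstream of the start site, chr2:105126416-105126528, plus strand: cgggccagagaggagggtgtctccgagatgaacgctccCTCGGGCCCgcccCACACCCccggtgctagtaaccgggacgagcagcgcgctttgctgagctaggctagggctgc
Wt1 peak 17.5 kb upstream, chr2:105108942-105109087, plus strand: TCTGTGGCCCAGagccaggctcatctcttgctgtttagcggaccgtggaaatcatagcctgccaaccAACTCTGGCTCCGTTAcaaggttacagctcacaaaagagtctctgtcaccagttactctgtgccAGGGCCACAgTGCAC

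For the stromal genes the promoter peaks of Madcam1 and Ltbr and the peaks nearest Cxcl13 are given. The Ltbr stretch reads along the gene on the minus strand.
Madcam1 peak just upstream of the start site, chr10:79664161-79664340, plus strand: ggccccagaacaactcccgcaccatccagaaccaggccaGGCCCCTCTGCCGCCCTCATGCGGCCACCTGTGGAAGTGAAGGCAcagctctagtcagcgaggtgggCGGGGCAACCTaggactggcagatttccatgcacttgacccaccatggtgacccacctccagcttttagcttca
Madcam1 peak 15 kb upstream, chr10:79649481-79649633, plus strand: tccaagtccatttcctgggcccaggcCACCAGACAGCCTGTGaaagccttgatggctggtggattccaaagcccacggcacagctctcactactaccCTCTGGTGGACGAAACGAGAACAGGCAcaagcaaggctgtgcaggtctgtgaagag
Cxcl13 peak 6.5 kb upstream, chr5:95950429-95950556, plus strand: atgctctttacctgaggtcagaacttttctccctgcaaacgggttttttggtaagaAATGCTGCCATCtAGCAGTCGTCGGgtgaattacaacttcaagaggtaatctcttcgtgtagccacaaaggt
Cxcl13 peak 14.1 kb downstream, chr5:95970966-95971067, plus strand: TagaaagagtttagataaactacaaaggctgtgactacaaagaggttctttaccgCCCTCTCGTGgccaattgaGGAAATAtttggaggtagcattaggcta
Ltbr promoter, upstream of the start site, chr6:125313886-125314040, minus strand: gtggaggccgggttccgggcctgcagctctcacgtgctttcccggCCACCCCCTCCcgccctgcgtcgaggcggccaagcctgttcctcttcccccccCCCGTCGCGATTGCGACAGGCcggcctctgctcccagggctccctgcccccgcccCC

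Promoters of Nkx2-3, Madcam1 and Ltbr were open in both libraries. The Wt1 promoter was open in replicate 2 only, which made 3 of 9 members in replicate 1 and 4 of 9 in replicate 2 (mean 3.5 ± 0.707, SD, n = 2). Among all protein-coding genes 53.4% and 56.9% had a promoter peak in replicates 1 and 2. With the lenient list the count was 4 and 6 of 9, against 57.4% and 61.9% of all genes, and the additions were Wt1 in replicate 1 and Tlx1 and Nkx2-5 in replicate 2. The 9 include Ccl19 and Ccl21a, counted as without a peak. At their promoters 21.4% and 18.2% of windows of 36 bases occur once on the reference chromosomes, so reads may not have been placed there. How far this lowers the share of the members was not tested.

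Open promoters are commoner where CpG dinucleotides are dense, and the members differed in this. Of promoters with an observed to expected CpG ratio of at least 0.6, 84.1% and 87% were open in replicates 1 and 2, against 22% and 26.1% of the others. The ratio was 0.69 at Tlx1 and 0.79 at Wt1, the only CpG-rich members, and neither had a promoter peak in replicate 1. It was 0.59 at Nkx2-5 and 0.57 at Nkx2-3, just under the limit. Ltbr had 0.51, and Madcam1, Ccl21a, Ccl19 and Cxcl13 lay between 0.17 and 0.24. Of these 4 CpG-poor promoters, that of Madcam1 was open in both libraries and the chemokine promoters in neither.

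At least 1 peak lay in the locus of 5 members in each library, against 73.9% and 76.5% of all genes. With the lenient list it was 6 and 7 members, against 79% and 82.8%. Tlx1, Nkx2-3, Madcam1 and Ltbr had a locus peak in both libraries, Cxcl13 in replicate 1 and Wt1 in replicate 2. Nkx2-5, Ccl19 and Ccl21a had none in either. The members held 15 and 16 locus peaks, of which 10 in each library overlapped the promoter of no other gene. Of all 15 and 16 locus peaks, those at promoters of other genes included, 80% in replicate 1 and 75% in replicate 2 overlapped a peak of the other library. The same share over all peaks of a library is not given, so this value has no background beside it. The median density was 0.216 and 0.23 peaks per 10 kb of locus, against 0.336 and 0.437 over all genes. This median and the locus counts take in Ccl19 and Ccl21a at 0. Their loci overlap, and 21.4% and 34.7% of the windows of 36 bases there occur once on the reference chromosomes. A median without these 2 loci is not given, so the gap to all genes may rest in part on them.

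**Figure D1:**
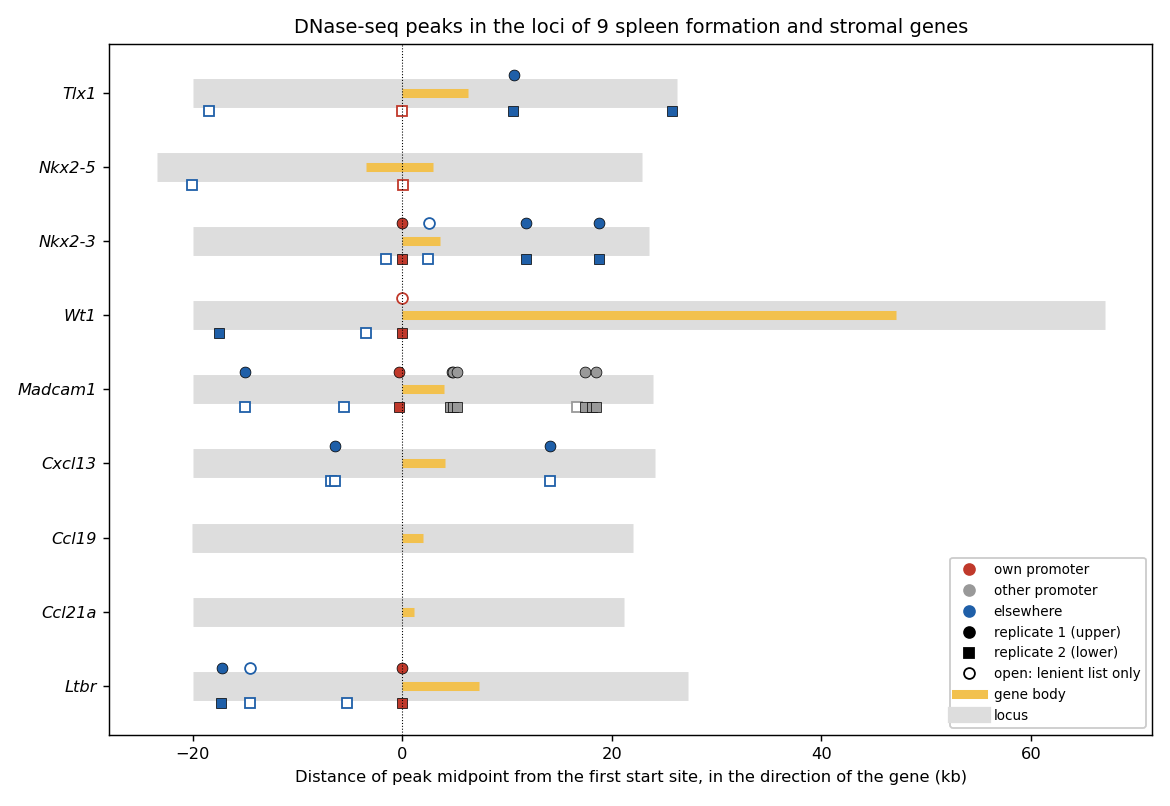
Peaks at each member by distance of the midpoint from the first start site, in kb along the gene. Circles are replicate 1 and squares replicate 2, filled marks are stricter-list peaks and open marks are in the lenient list only. Nkx2-3 had 3 peaks in each library, and Ccl19 and Ccl21a had none in either list.

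No midpoint of a stricter peak lay inside the body of any member, in either library. Over all genes 47.4% and 52.9% had one there, and among genes of at most 7.5 kb, the size of every member but Wt1, 22.7% and 26% did. The promoter peaks of Nkx2-3, Wt1 and Ltbr reached across the start site with their midpoints 75 or fewer bases upstream, and that of Madcam1 lay wholly upstream.

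Nkx2-3 had a promoter peak at signal 1.00 and rank 27946 of 42454 in replicate 1, and 1.48 and rank 24333 of 60683 in replicate 2. Signal is the authors' value per peak and was compared only within a library. The peak 11.8 kb downstream had signal 1.21 and rank 23808 in replicate 1, and 1.38 and rank 25669 in replicate 2. The peak 18.8 kb downstream was the strongest of the locus in both libraries, with signal 1.79 and rank 17086, and 1.61 and rank 22646. All 3 lay between the top 37.3% and the top 65.8% of their libraries, so they were peaks of middling strength. The locus lay on chromosome 19, where the gene spans 43612325 to 43615892 on the plus strand, and both downstream peaks were intergenic.

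Both downstream Nkx2-3 peaks held the consensus of CTCF, a zinc finger protein known for marking chromatin loop ends. They were the only 2 of 10 member peaks in each library to do so, while 8.57% and 6.29% of all peaks held it. Both lie away from promoters, where 2 of 7 and 2 of 6 member peaks held it, against 13.6% and 8.75% of all such peaks. In the peak at 18.8 kb all 12 of its 12 bases lay in a footprint in each library. In the peak at 11.8 kb all 12 did in replicate 2 and 0 in replicate 1. The sites read on opposite strands, minus at 11.8 kb and plus at 18.8 kb. A match of letters is a description and not a measured binding site. CTCF was among several consensus strings searched, and the counts of the others are given further below.

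A shorter CTCF core, CCCNCTNG, was searched as well, on both strands and overlapping the full consensus. It was picked out of 3 forms after the sequences of these very peaks had been read, so its count over them follows from the choice and is not a finding. It occurred in 8 of 10 member peaks in replicate 1 and 5 of 10 in replicate 2, with 21.2% and 18.5% of all peaks holding it. In the Tlx1 peak 9.8 kb downstream, which lacks the full consensus, 5 of its 8 bases in replicate 1 and 8 of 8 in replicate 2 lay in footprints. The core sites of the other peaks varied in this. The bases were 8 and 6 at Cxcl13 14.1 kb downstream, and 6 and 6 at Madcam1 15 kb upstream. At Nkx2-3 they were 0 and 8 at 11.8 kb, and 8 and 8 at 18.8 kb. They were 0 and 0 at the Nkx2-3 promoter, Cxcl13 6.5 kb upstream and Ltbr 17.3 kb upstream. The Cxcl13 site at 6.5 kb lay in the bases searched but before the start of the stricter peak, so it is not in the sequence shown.

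Tlx1 spans 45150680 to 45156943 on chromosome 19. Its locus held 1 peak in replicate 1 and 2 peaks in replicate 2. The peak both libraries held lay 9.8 kb downstream of the nearest start site, at signal 0.675 and rank 36378 in replicate 1, and 0.979 and rank 34166 in replicate 2. It ranked below the median peak of both lists, at the top 85.7% and 56.3%. The second, 25.0 kb downstream in replicate 2 only, had signal 0.482 and rank 55076. At the Tlx1 promoter a cut rate run was listed in replicate 2, with a lowest FDR of 0.0007 over 279 bases, and none in replicate 1.

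Nkx2-5, on chromosome 17, had no stricter peak nearer than 43566 bases upstream of its start site, the same distance in both libraries. In replicate 2 the lenient list held a peak across the start site with signal 0.497 and a run of 195 bases with a lowest FDR of 0.00102, just outside the 0.001 that the stricter peaks met. In replicate 1 no base of its locus was under a listed run.

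Wt1, on chromosome 2 from 105126529 to 105173616, was the longest member. In replicate 2 its promoter peak had signal 0.559 and rank 51090 of 60683, with 3 footprints inside. In replicate 1 the same place was a lenient peak at signal 0.454, with a lowest FDR of 0.00173 and 0 footprints. The peak 17.5 kb upstream, in replicate 2 only, had signal 0.595 and rank 49341, and lay within the annotated antisense gene Wt1os. In replicate 1 the nearest stricter peak lay 104387 bases upstream. These ranks put the upstream peak at the top 81.3% and the promoter at the top 84.2%, well below the median peak.

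Madcam1, on chromosome 10 from 79664559 to 79668537, was the stromal gene with the most peaks, 7 in each library. Most of them were at neighbours: 5 in replicate 1 and 6 in replicate 2 overlapped the promoters of Tpgs1 or Cdc34. In replicate 1 the deposited list held a pair of Tpgs1 peaks that overlap each other, and both were counted as listed. The strongest, at Cdc34, had signal 14.6 and rank 219 in replicate 1, and 24.8 and rank 111 in replicate 2. The own promoter peak lay about 0.3 kb upstream of the start site, with signal 1.55 and rank 19323 in replicate 1, and 0.979 and rank 34166 in replicate 2. It held 3 footprints in each library. Its lowest FDR was 4.27e-14 in replicate 1 and 1.91e-06 in replicate 2, so here the library with fewer peaks had the lower value. A further peak 15 kb upstream was stricter in replicate 1 (signal 0.802) and lenient in replicate 2 (0.543).

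The NKX2 letters TNAAGTG, searched on both strands, occurred in 1 of 10 member peaks in each library, the one just upstream of Madcam1. Of all peaks 7.47% and 8.29% held them. None of the 7 bases lay in a footprint in either library. The SP/KLF letters GGGCGG occurred in 5 of 10 member peaks in each library, against 31.6% and 26.1% of all peaks, and at Madcam1 1 such site lay with 6 of 6 bases in footprints of both. The letters searched for TLX (TAATTG), WT1 (GCGTGGGNG), ETS (CCGGAAGT) and PU.1 (GAGGAAGT) occurred in 0 of 10 member peaks in each library. They are rare in all peaks too: TLX in 3.03% and 3.18%, WT1 in 1.62% and 1.46%, ETS in 2.94% and 2.34%, and PU.1 in 5.1% and 6.2%. The count of 0 therefore does not set the members apart, and says only that those letters are not in these windows of 200 bases. RUNX letters were in the windows of 0 and 1 of 10 member peaks, by replicate, against 5.87% and 6.77% of all peaks. Those of GATA were in 1 and 0 (5.8% and 7.53%) and of AP-1 in 1 and 2 (4.85% and 5.83%). NFY letters were in 3 and 2 (22.9% and 21.3%), and the NF-kB consensus in 0 and 1 (4.19% and 4.4%).

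**Figure D2:**
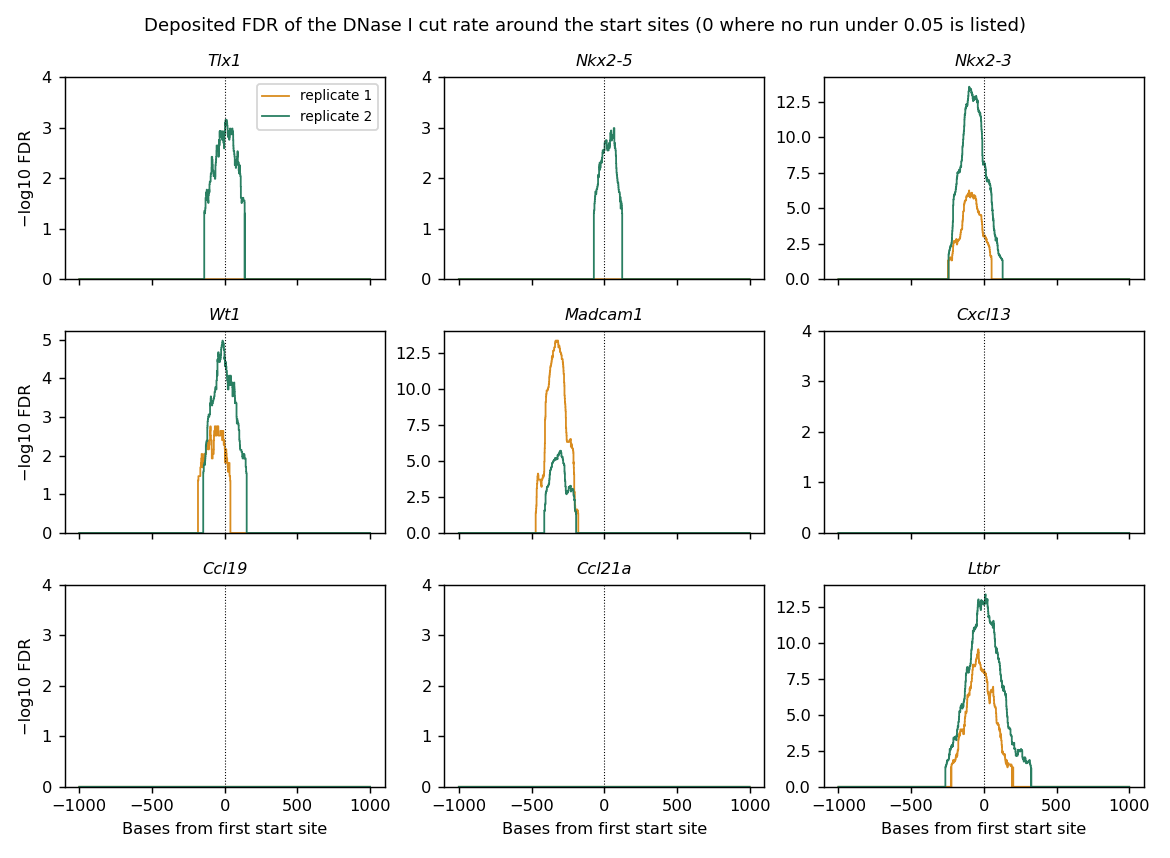
The deposited FDR of the cut rate as −log10, within 1000 bases of the first start site of each member, with its own vertical scale per panel and 0 where no run under 0.05 is listed. Runs are at the start sites of Nkx2-3, Wt1 and Ltbr and upstream of Madcam1 in both libraries, at Tlx1 and Nkx2-5 in replicate 2 only, and at no chemokine gene.

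Ltbr, on chromosome 6 from 125306571 to 125313885, had a promoter peak in both libraries. Its signal was 0.95 and its rank 29082 in replicate 1, and 1.08 and 31573 in replicate 2. It held 2 footprints in replicate 1 and 5 in replicate 2. A second peak 17.3 kb upstream lay in an exon of the neighbour Scnn1a, with signal 0.886 and rank 30546, and 1.15 and rank 30015. Both Ltbr peaks ranked between the top 49.5% and the top 72% of their lists.

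Cxcl13, which draws B cells into follicles, had no promoter peak in either list and no run listed within 1 kb of its start site. In replicate 1, 2 stricter peaks stood in its locus on chromosome 5, 6.5 kb upstream at signal 0.528 and rank 40386 of 42454, and 14.1 kb downstream at signal 0.422 and rank 42002. Both were among the weakest peaks of that list, at the top 95.1% and 98.9%. In replicate 2, which had more peaks, both were in the lenient list only, at signal 0.297 and 0.313. In replicate 2 the nearest stricter peak lay 80850 bases downstream of the start site. The first stricter peak beyond the locus lay 2630 kb from the gene on the left in both libraries, and on the right 201 kb in replicate 1 and 76.7 kb in replicate 2.

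Ccl19 and Ccl21a, which draw T cells and dendritic cells into the T zone, are neighbours on chromosome 4, and their loci share 23718 bases. Neither had a peak in either list of either library, nor a single base under a listed cut rate run. The nearest stricter peak was 104110 and 104178 bases upstream of Ccl19 in replicates 1 and 2, and 86660 and 86728 bases upstream of Ccl21a. This stretch of the genome is repeated, which bears on whether reads could be placed there. Of the windows of 36 bases, 21.4% at the Ccl19 promoter and 18.2% at the Ccl21a promoter occurred once on the reference chromosomes, and of those of 76 bases 43.4% and 33.1%. The promoters of the other 7 members had 98.5% to 100% at 36 bases. Over all genes the median was 98.7%, and 6.31% of promoters fell below 50%. The read length and the treatment of reads that match several places are unknown, and the part of the repeats in the absence of peaks was not tested.

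**Figure D3:**
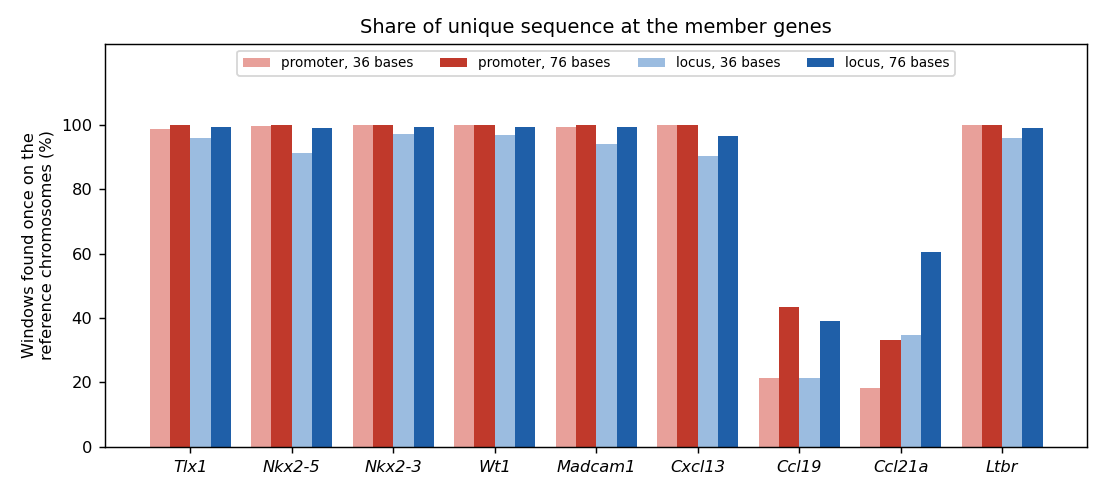
Share of windows of 36 and 76 bases that occur once on the reference chromosomes, at the promoter and over the locus of each member, in percent. Ccl19 and Ccl21a lay at 18.2% to 60.5% and the other 7 members at 90.2% or more.

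Among promoters without a stricter peak, a listed cut rate run was found at 1 of 6 members in replicate 1 and 2 of 5 in replicate 2. Over all such promoters 10.7% and 14% held one. The members were Wt1 in replicate 1, and Tlx1 and Nkx2-5 in replicate 2, the same promoters that the lenient list added. Every lenient peak held a listed run, so this match largely follows from the lists and is not a further result.

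**Figure D4:**
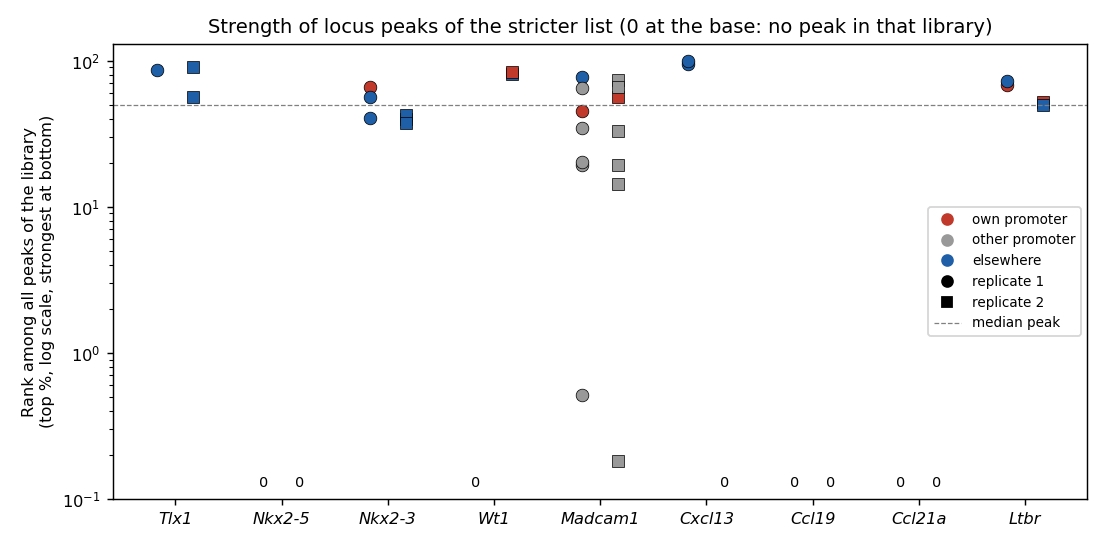
Rank of each stricter locus peak among all peaks of its library, as top percent on a log axis with the strongest at the bottom. Circles are replicate 1 and squares replicate 2. The strongest marks, at 0.516% and 0.183%, are the Cdc34 promoter in the Madcam1 locus. Peaks at the Tpgs1 promoter, also in that locus, lie at 14.3% to 34.4%, and the peaks that overlap no other gene's promoter lie at 37.3% or weaker.

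The genes that work with the members were read the same way. Of 13 genes listed for the lymphotoxin pathway, 12 promoters were open in replicate 1 and 13 in replicate 2, with Tnfrsf1a open in replicate 2 only. The list is wider than signalling through Ltbr, since it includes Tnf, Tnfrsf1a and Tnfrsf1b. Among all protein-coding genes 53.4% and 56.9% were open, and among CpG-rich promoters 84.1% and 87%. The CpG ratio of these 13 promoters is not given, so the count was not set against promoters of like sequence. The median density over these 13 loci was 0.87 and 1.03 peaks per 10 kb, against 0.336 and 0.437 over all genes. The ligand gene Lta, which lymphocytes express, had 13 and 19 locus peaks in replicates 1 and 2. Ltb and Tnf are its close neighbours, so their loci can share peaks and their counts are not independent. Of 6 receptors for the members' products, 5 and 6 promoters were open, or 83.3% and 100%, against 53.4% and 56.9% of all genes. Cxcr5, the receptor for Cxcl13, had 14 and 20 locus peaks, and Ccr7, the receptor for Ccl19 and Ccl21a, had 6 and 8. The locus counts of Lta, Cxcr5 and Ccr7 take in any peaks at promoters of neighbours, which were not set apart.

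Of 6 homologues of the members, Tlx2, Tlx3, Nkx2-1, Nkx2-2, Nkx2-6 and Nkx2-9, none had a promoter peak in either library. Of 14 markers of reticular and follicular dendritic stroma 6 and 9 promoters were open, of 6 endothelial markers 2 and 2, and of 6 mesothelial markers 0 and 1. Among all protein-coding genes 53.4% and 56.9% were open. The stroma markers, at 42.9% and 64.3%, lay below that share in replicate 1 and above it in replicate 2. Their count therefore does not set stroma apart from other genes. Of 4 markers of pancreas acinar cells, a neighbouring organ, 0 and 1 were open, and how far such cells add to these peaks was not tested.

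**Figure D5:**
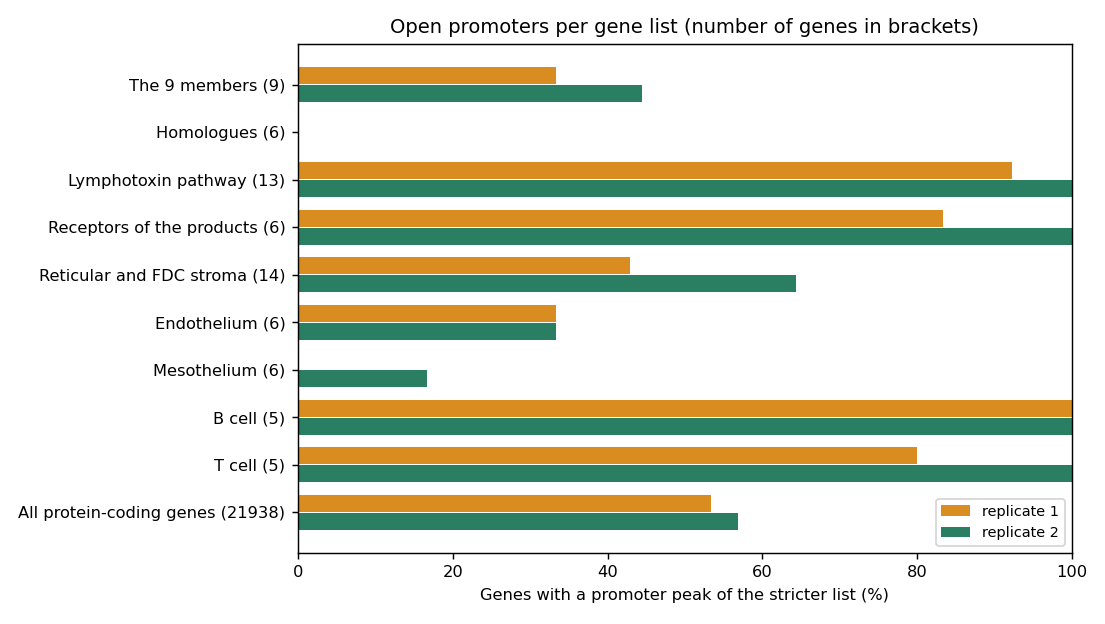
Percent of genes with a stricter promoter peak in each list, per library, with the number of genes in brackets. The members stood at 33.3% and 44.4%, below all protein-coding genes at 53.4% and 56.9%, and the lymphotoxin pathway at 92.3% and 100%. The members include Ccl19 and Ccl21a, which count as without a peak though their promoters are largely repeated sequence. Only Tlx1 and Wt1 of the members had CpG-rich promoters. Over all genes, promoters that were not CpG-rich had a peak in 22% and 26.1%. The bars do not allow for this mix of promoters.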

How the data were processed

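DNase-seq of 2 spleen libraries was analysed as 1 group. Per the readmes, the authors derived peaks and cut rates from each single library's alignments to mm10, and footprints from these alignments and cut rates, without pooling. The aligner and the callers used are not stated in the labels or files. The signal per peak is the authors' value, of unstated scale. The deposited cut rate track gives a q-value (FDR) per run of bases and lists runs under 0.05, and deposited footprints carry a constant FDR of 0.01. Depth is unknown, so no interval was computed.

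Peaks were assigned by midpoint to loci of the basic GENCODE M21 annotation (21938 protein-coding genes), and promoter windows were 1000 bases to either side of each start site. Motif letters were searched in 200 bases around midpoints. Unique windows of 36 and 76 bases were counted over both strands of the chromosomes. The locus, promoter and window counts were tested on simulated data. There the window count matched a direct count of the strings. Promoter sequences of RefSeq (mm10, GRCm38) matched 8 of the 9 members and were identical to the genome. Python 3.11.15, pandas 2.3.3, numpy 2.4.6, pysam 0.24.0, numba 0.67.0 and bedtools 2.31.1 were used.

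By rule all 9 members are named, with, where they have one, the own promoter peak, the strongest peak away from other promoters and the strongest peak of any kind. Members, lists and alternatives were chosen with earlier results of these data known, and the short CTCF core after the sequences had been read. Alternatives changed the peak list, number of peaks, locus flank, promoter window, overlap rule, run FDR and library. One further gene list is not reported here. No test was possible between groups.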

Additional observations from a re-analysis of the deposited data

How the results depend on the processing

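Values are means of both libraries. With the strongest 21227 peaks of each library, members with a promoter peak fell from 3.5 to 0.5, members with a locus peak from 5 to 1.5, locus peaks from 15.5 to 5, those away from other promoters from 10 to 1, median density from 0.223 to 0 and footprints from 42.5 to 18, while the share of shared peaks was 83.3%. With no flank, members with a locus peak, locus peaks, those away from other promoters, density and footprints were all 0, and no share could be computed. With a flank of 10 kb, locus peaks were 9.5, those away from other promoters 6.5, density 0.258 (0.366 in replicate 1 and 0.149 in replicate 2), shared peaks 84.4% and footprints 26.5. With the lenient list, locus peaks were 24.5 (18 and 31), those away from other promoters 18.5 (13 and 24), density 0.448 (0.216, as in the stricter list, and 0.68, so the rise rests on replicate 2) and closed promoters with a run 0, since the lenient list calls those promoters open. With runs of at most 0.001 that count was 0.5, against 1.5. The short CTCF core, chosen after the sequences were seen, gave 6.5 peaks against 2 with the full consensus. Leaving out a library gave 3 to 4 members with a promoter peak, 5 to 5 with a locus peak, 15 to 16 locus peaks, 10 to 10 away from other promoters, density 0.216 to 0.23, 75 to 80% shared, 35 to 50 footprints and 1 to 2 closed promoters with a run. Over all results that answer a comparison, 35 alternatives left the value within its limit and 22 moved it. The 35 include those that leave out a library, which only return the value of the other one. The tally is therefore no measure of how stable the results are. No paired analysis was possible because both libraries belong to 1 group. Unknown depth limits every absence of a peak.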
